A study of Mus musculus with 2 samples.

Results

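The Schwann cell and myelin genes *Pmp22*, *Mbp*, *Prx*, *Cnp*, *Sox10* and *S100b*, were followed in spatial transcriptomics of mouse skin. They were taken by symbol, each symbol stood in 1 row, and they made up 6 of the 19465 genes measured. Schwann cells wrap the axons of peripheral nerves. Myelinating Schwann cells form a compact membrane sheath around a large axon, and non-myelinating ones hold bundles of thin axons, the commoner arrangement among the sensory fibres of skin. The sheath is built from a few very abundant membrane and cytoplasmic proteins, while transcription factors of the Sox and Egr families keep their genes switched on.

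The measurement was Visium CytAssist on formalin-fixed, paraffin-embedded back skin, in which pairs of probes to each gene are captured on barcoded spots and counted as unique molecular identifiers (UMIs). There was 1 section of 1 mouse per genotype. The *S1pr2fl/fl* mouse carried the floxed gene of sphingosine 1-phosphate receptor 2 without Cre, and the *S1pr2fl/fl K14-Cre* mouse carried the same alleles with Cre under the keratin 14 promoter, which is active in keratinocytes. Both mice were 8 weeks old and both received 62.5 mg of 5% imiquimod (IMQ) cream on depilated skin for 7 days, so the comparison is of 2 treated skins and holds no untreated one.

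With 1 section per genotype there was no replicate and no test. All intervals are 95% intervals that cover counting error only, and a gene was called higher or lower where its level differed at least 2-fold. A spot is a small area that can hold several cells of different types, and in spots fewer cells of a type and less RNA per cell cannot be told apart. Levels are given as UMIs per 1000000 UMIs (CPM). They are compared for 1 gene between places and not between genes, since the probes per gene differ.

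The *S1pr2fl/fl* section held 1282 spots with a median of 3542.5 UMIs, and the *S1pr2fl/fl K14-Cre* section 981 spots with a median of 2319 UMIs. The sections shared 357 spot barcodes, which name positions of the array. As a background, 1226 olfactory, vomeronasal, taste and trace amine receptor genes, which skin should hardly express, had a mean of 11.8 UMIs per gene in the *S1pr2fl/fl* section and 17.0 in the *S1pr2fl/fl K14-Cre* section. Their mean CPM of 2.21 and 5.98 differed by 1.43 on the log2 scale (1.40 to 1.46), so this background was itself higher per UMI in the *S1pr2fl/fl K14-Cre* section. *S1pr2* had 154 UMIs in the *S1pr2fl/fl* section (29.0 CPM, 24.6 to 33.9) and 54 in the *S1pr2fl/fl K14-Cre* section (19.0 CPM, 14.3 to 24.8). In the epidermal regions described later it had 7 UMIs (9.25 CPM, 3.72 to 19.1) and 8 UMIs (14.2 CPM, 6.13 to 28.0), intervals that overlap, so the loss of the gene from keratinocytes could not be checked there. Where the probes lie relative to the deleted part was not given in the sources used here.

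The RefSeq promoter table held starts of *Pmp22*, *Prx*, *Cnp* and *S100b*. The bases before the first annotated start are shown for *Prx*, *Pmp22* and *Cnp*, myelin genes that were higher in the same Schwann-marker spots described later, written 5′ to 3′ in build GRCm38.p6, the patch release of mm10. Capitals mark matches on either strand to ACAAAG, a core bound by Sox factors, or to GTGGGNG, a core bound by Egr factors.
Prx, chr7:27499074-27499304, plus strand: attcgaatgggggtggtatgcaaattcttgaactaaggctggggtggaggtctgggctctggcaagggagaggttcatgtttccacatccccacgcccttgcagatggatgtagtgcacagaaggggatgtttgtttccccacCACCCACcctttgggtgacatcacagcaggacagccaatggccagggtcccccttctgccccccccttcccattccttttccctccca
Pmp22, chr11:63128732-63128981, plus strand: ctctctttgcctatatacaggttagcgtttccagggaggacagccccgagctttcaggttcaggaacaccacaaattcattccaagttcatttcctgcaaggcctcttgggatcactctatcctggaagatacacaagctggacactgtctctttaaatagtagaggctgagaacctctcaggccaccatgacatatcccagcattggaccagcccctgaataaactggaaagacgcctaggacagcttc
Cnp, chr11:100574689-100574908, plus strand: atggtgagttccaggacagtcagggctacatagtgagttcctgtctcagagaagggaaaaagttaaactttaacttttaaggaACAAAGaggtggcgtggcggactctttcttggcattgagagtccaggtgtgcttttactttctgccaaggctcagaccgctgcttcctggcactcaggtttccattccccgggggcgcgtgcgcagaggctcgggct
The search covered the 250 bases before the start listed in the table, and the sequences of *Prx* and *Cnp* are shown up to the first annotated start of the gene, 231 and 220 bases. *Prx* held 1 match to the Egr core and none to the Sox core, *Cnp* held 1 match to the Sox core and none to the Egr core, and the first *Pmp22* start held neither. Among the 32851 promoter windows of the table, 250 bases before each start, 16.5% held ACAAAG and 28.1% held GTGGGNG. These matches are a description of the letters in these windows and say nothing of binding.

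Among the structural proteins of the sheath, *Pmp22*, which encodes a tetraspan protein of compact myelin and is also made by fibroblasts, had 918 UMIs in 395 spots of the *S1pr2fl/fl* section and 688 UMIs in 281 spots of the *S1pr2fl/fl K14-Cre* section. *Mbp*, whose protein holds the cytoplasmic faces of compact myelin together, had 401 UMIs in 238 spots and 448 UMIs in 187 spots, in the same order. *Prx*, periaxin, which links the Schwann cell membrane to its cytoskeleton, was sparse, with 71 UMIs in 51 spots and 137 UMIs in 70 spots. No receptor gene had as many UMIs as *Mbp* or *Pmp22* in either section, and 3 and 1 had as many as *Prx*. *Cnp*, an enzyme of the cytoplasmic channels of myelin, had 289 UMIs in 190 spots and 247 UMIs in 124 spots.

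The remaining members were sparse. *S100b*, a calcium-binding protein of the Schwann cell cytoplasm, had 59 UMIs in 47 spots of the *S1pr2fl/fl* section and 86 UMIs in 47 spots of the *S1pr2fl/fl K14-Cre* section, and 3 receptor genes reached its count in each. *Sox10*, the transcription factor that specifies the Schwann cell and melanocyte lineages, had only 16 UMIs in 12 spots and 17 UMIs in 10 spots. As many UMIs or more were counted for 301 of the 1226 receptor genes in the *S1pr2fl/fl* section and for 557 in the *S1pr2fl/fl K14-Cre* section. *Sox10* was therefore not distinguishable from background here, and its values are given below for completeness.

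**Figure D1:**
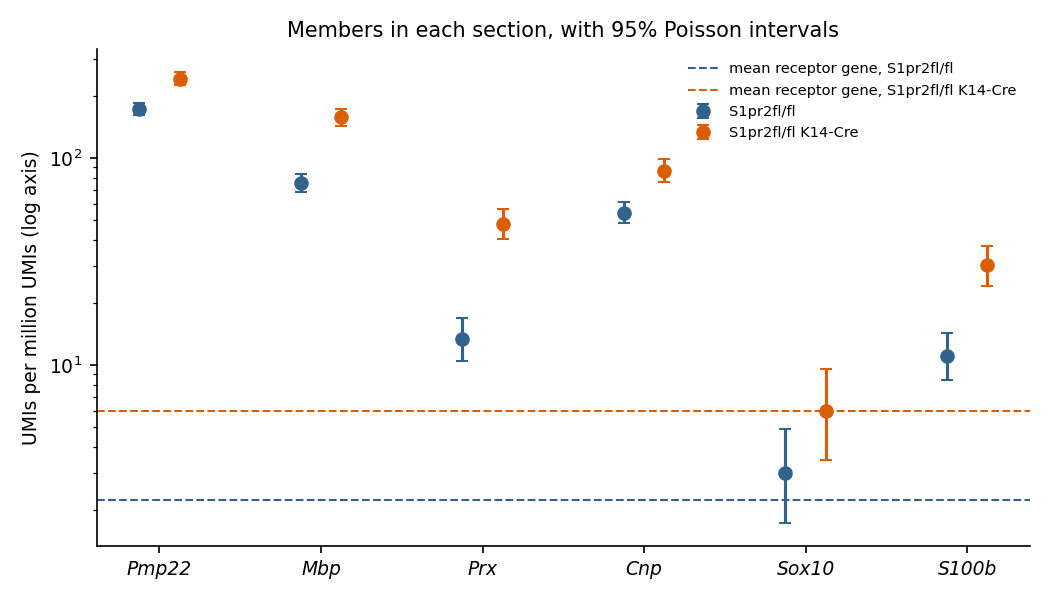
Level of each member in the *S1pr2fl/fl* section and in the *S1pr2fl/fl K14-Cre* section, as UMIs per 1000000 UMIs on a log axis, with 95% Poisson intervals. Dashed lines show the mean receptor gene of each section (2.21 and 5.98 CPM). *Sox10* lies near these lines and the other 5 members lie above them.

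The depth of a spot decided in part whether a member was seen in it. Spots with *Mbp* had a median depth of 5986.5 UMIs in the *S1pr2fl/fl* section and 3125 in the *S1pr2fl/fl K14-Cre* section, above the section medians. A UMI of *Mbp* was found in 18.6% of the *S1pr2fl/fl* spots (16.5 to 20.8) and in 19.1% of the *S1pr2fl/fl K14-Cre* spots (16.6 to 21.7), intervals that overlap. After every spot with at least 1000 UMIs was thinned to 1000, which kept 978 and 870 spots, the share was 5.93% (4.53 to 7.60) and 10.5% (8.51 to 12.7). The order was the same as before thinning, and these intervals did not overlap.

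The same step changed the other shares. For *Pmp22*, 30.8% and 28.6% of spots held a UMI, and 13.8% and 16.2% did after thinning. For *Cnp*, 14.8% and 12.6% became 4.91% and 6.90%. *Prx* was found in 3.98% and 7.14% of spots and in 1.74% and 3.68% after thinning, and *S100b* in 3.67% and 4.79% and then in 0.613% and 2.53%. After thinning the intervals of the sections overlapped for *Pmp22*, *Cnp* and *Prx* and did not for *S100b*. Of the receptor genes, the median one had a UMI in 9 spots of the *S1pr2fl/fl* section and 11 spots of the *S1pr2fl/fl K14-Cre* section, close to the 12 and 10 spots with *Sox10*. Most spots with a member held few of its UMIs: 144 of the 238 *Mbp* spots and 84 of the 187 held a single one.

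At least 1 member was found in 606 *S1pr2fl/fl* spots (47.3%) and 483 *S1pr2fl/fl K14-Cre* spots (49.2%), at least 2 members in 230 (17.9%) and 164 (16.7%), and at least 4 in 18 (1.40%) and 16 (1.63%). No spot held all 6. Spots without any member had a median of 1411.5 and 1874.5 UMIs, and those with 3 members 6287 and 3359, so co-detection also followed depth. To take depth out, the CPM of one member was compared between spots with and without another.

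*Pmp22* was at 232 CPM in *S1pr2fl/fl* spots with *Mbp* and at 147 CPM in those without, a ratio of 1.57 (1.38 to 1.80). The *S1pr2fl/fl K14-Cre* values were 373 and 194 CPM, a ratio of 1.93 (1.65 to 2.25). *Prx* gave ratios of 2.29 (1.39 to 3.75) and 2.27 (1.59 to 3.22) in spots with *Mbp* over spots without. The summed receptor genes, in contrast, had ratios of 1.01 (0.971 to 1.04) and 1.00 (0.973 to 1.04), so the excess in spots with *Mbp* was not shared by the background. In spots with over spots without *Pmp22*, *Prx*, *Cnp* or *S100b* the receptor ratios ranged from 0.83 to 1.27.

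*Mbp* and *Pmp22* met in 122 *S1pr2fl/fl* spots, which were 51.3% of the *Mbp* spots and 30.9% of the *Pmp22* spots. They met in 81 *S1pr2fl/fl K14-Cre* spots, 43.3% and 28.8% of the same. *S100b* had ratios in *Mbp* spots of 1.85 (1.06 to 3.19) and 1.25 (0.765 to 2.01), the latter interval including 1. *Sox10* met *Mbp* in 2 and 4 spots and *Prx* in none of the *S1pr2fl/fl* spots.

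Single spots differed in what they held. The *S1pr2fl/fl K14-Cre* spot with the most *Mbp*, 19 UMIs, was also the one with the most *Pmp22*, 21 UMIs, and held 5 UMIs of *Prx*, 7 of *Cnp* and 2 of *S100b*. The *S1pr2fl/fl* spot with the most *Mbp*, 10 UMIs, held 10 UMIs of *Pmp22*, 3 of *Prx* and 2 of *Cnp*. The *S1pr2fl/fl K14-Cre* spot with the most *Sox10*, 3 UMIs, held no *Mbp*, *Pmp22* or *Prx*. A *S1pr2fl/fl* spot with the most *S100b*, 3 UMIs, held 0 UMIs of every other member, and the *S1pr2fl/fl K14-Cre* spot with the most *Cnp*, 9 UMIs, held 2 of *Pmp22* and 0 of the others.

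Schwann cell spots were then chosen by 8 genes that are not members. They are genes of the myelin sheath, the node region and Schwann cell signalling, among them *Mag*, *Drp2*, *Cldn19*, *Gldn*, *Cdh19* and *Dhh*, and a spot with at least 3 UMIs over them was called a Schwann-marker spot. There were 48 such spots (3.74%, 2.77 to 4.93) in the *S1pr2fl/fl* section and 82 (8.36%, 6.70 to 10.3) in the *S1pr2fl/fl K14-Cre* section. They were deeper than the rest, with medians of 5880 against 3396 UMIs and 3476 against 2178 UMIs. They lay in 31 and 38 connected groups, of which 24 and 26 were single spots.

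*Mbp* reached 325 CPM (263 to 399) in the *S1pr2fl/fl* Schwann-marker spots against 61.2 CPM in the other spots, a ratio of 5.31 (4.17 to 6.72). Its *S1pr2fl/fl K14-Cre* level reached 466 CPM (397 to 543) against 114 CPM, a ratio of 4.07 (3.34 to 4.95). All 5 members with at least 50 UMIs in the section were at least 2-fold higher in these spots in both sections and none was 2-fold lower. Among all genes with as many UMIs, 7.81% were 2-fold higher and 6.9% 2-fold lower in the *S1pr2fl/fl* section, and 6.48% and 7.6% in the *S1pr2fl/fl K14-Cre* section. The members' median log2 ratio was 2.21 and 1.63, beside 0.11 and 0.05 over all genes. The call of *S100b* in the *S1pr2fl/fl K14-Cre* section was lost with a minimum of 2 UMIs, where its log2 ratio was 0.80. Genes of other tissues were also higher in these spots: in the *S1pr2fl/fl* section 5 of 6 tested fat genes were 2-fold higher (median log2 ratio 1.20), against 0 of 6 in the *S1pr2fl/fl K14-Cre* section (0.07). There 6 of 7 developmental muscle genes (median 1.80) and 3 of 4 tested slow muscle genes (1.61) were 2-fold higher. Both muscle lists hold *Tnnc1* and *Tnni1*. The part of these tissues in the members' ratios was not tested.

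*Prx* had the ratio of 7.39 (4.22 to 12.5) in the *S1pr2fl/fl* section, from 21 of its 71 UMIs, and 4.13 (2.86 to 5.91) in the *S1pr2fl/fl K14-Cre* section, from 50 of its 137 UMIs. *Pmp22* had ratios of 4.41 (3.73 to 5.19) and 3.09 (2.61 to 3.65), and *Cnp* 3.33 (2.38 to 4.58) and 2.46 (1.82 to 3.29). *S100b* had ratios of 4.49 (2.17 to 8.60) and 2.18 (1.25 to 3.64). *Sox10* had none of its 16 *S1pr2fl/fl* UMIs in these spots, where a count of 0 allows up to 3, and 4 of its 17 *S1pr2fl/fl K14-Cre* UMIs (ratio 2.21, 0.525 to 7.16). Receptor genes differed little, with ratios of 1.19 (1.11 to 1.27) and 1.03 (0.992 to 1.08).

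**Figure D2:**
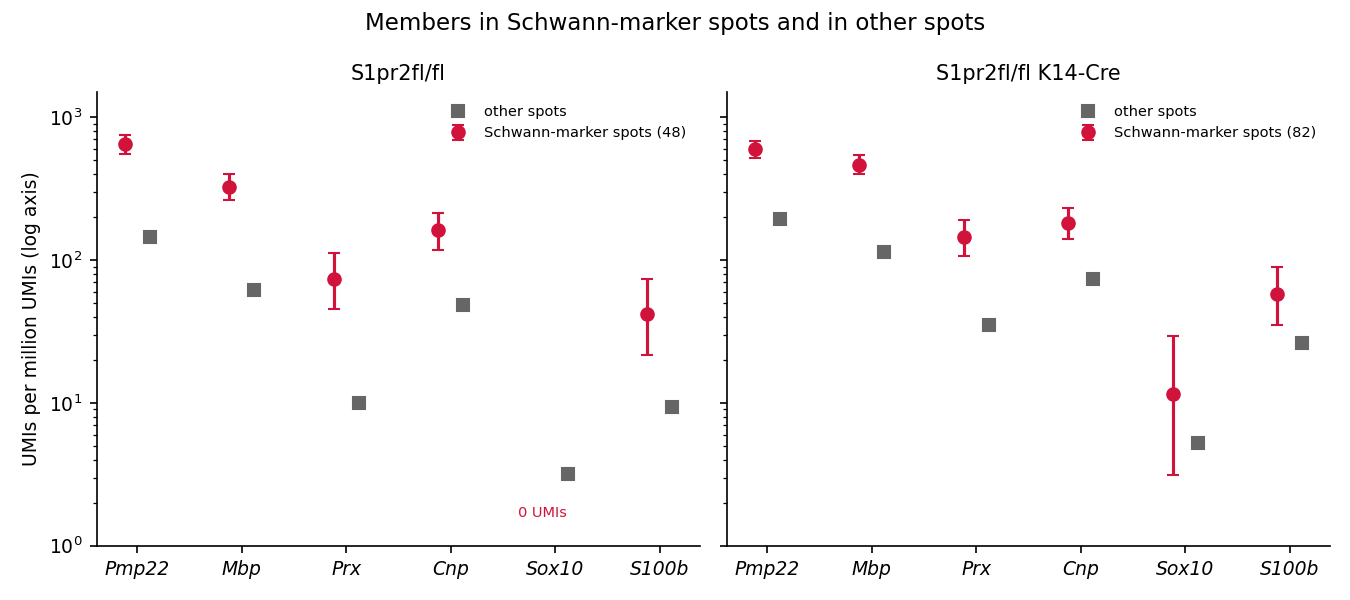
Level of each member in Schwann-marker spots (circles, 95% Poisson intervals) and in the other spots (squares) of each section, as UMIs per 1000000 UMIs on a log axis. *Pmp22*, *Mbp*, *Prx*, *Cnp* and *S100b* are higher in Schwann-marker spots in both sections, by 2.18 to 7.39 times, and *Sox10* has 0 UMIs there in the *S1pr2fl/fl* section.

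Although enriched there, most UMIs of each member lay outside Schwann-marker spots. These spots held 23.2% of the *Mbp* UMIs, 20.04% of the *Pmp22* UMIs and 29.6% of the *Prx* UMIs of the *S1pr2fl/fl* section, and 36.2%, 30.1% and 36.5% in the *S1pr2fl/fl K14-Cre* section. Of *Cnp* they held 46 of 289 and 63 of 247 UMIs, and of *S100b* 12 of 59 and 20 of 86, in the same order of sections. At least 2 members were seen in 68.8% of the *S1pr2fl/fl* Schwann-marker spots and in 16.0% of the others, and in 61.0% and 12.7% in the *S1pr2fl/fl K14-Cre* section. These shares were not taken at equal depth, and the Schwann-marker spots were the deeper ones.

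The widest connected group of the *S1pr2fl/fl* section had 11 spots, lay 6 to 9 array steps from the epidermal region and held 44 UMIs of *Mbp*, 80 of *Pmp22*, 7 of *Prx*, 20 of *Cnp* and 3 of *S100b*, which was 11.0% of the section's *Mbp* in 1.14% of its UMIs. A *S1pr2fl/fl K14-Cre* group of 22 spots, 0 to 4 steps away, held 80 UMIs of *Mbp*, 100 of *Pmp22*, 22 of *Prx*, 29 of *Cnp* and 6 of *S100b*, which was 17.9% of the *Mbp* in 3.83% of the UMIs. A second group there had 12 spots, with 21 UMIs of *Mbp* and 17 of *Prx*.

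**Figure D3:**
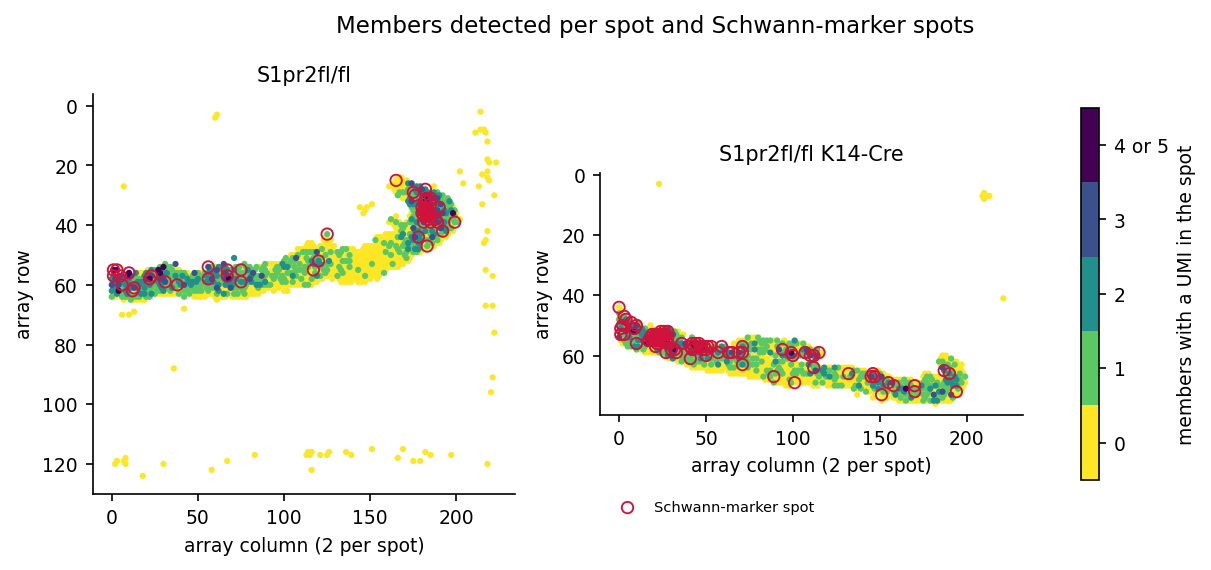
Spots over tissue of each section by array column and row, coloured by the number of members with at least 1 UMI, with Schwann-marker spots ringed (48 in the *S1pr2fl/fl* section and 82 in the *S1pr2fl/fl K14-Cre* section). Rings gather in 1 larger group at the right end of the *S1pr2fl/fl* section and in groups toward the left end of the *S1pr2fl/fl K14-Cre* section.

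Genes of axons and of central myelin were set beside the members in these spots. Of 10 axon genes, 3 had at least 50 UMIs in the *S1pr2fl/fl* section and 1 of them was 2-fold higher in Schwann-marker spots, while 4 had as many in the *S1pr2fl/fl K14-Cre* section, of which 2 were 2-fold higher and 1 was 2-fold lower. The median log2 ratio of the tested axon genes was 0.38 and 0.85. *Sncg*, a synuclein gene of the axon list, was above this median, 3.01-fold (1.77 to 4.86) and 2.82-fold (1.59 to 4.81) higher in Schwann-marker spots. Which cells of these spots made it was not tested. The neurofilament genes *Nefl* and *Nefh* had 33 and 20 UMIs in the *S1pr2fl/fl* section and 0 in its Schwann-marker spots, counts that allow ratios of up to 2.08 and 3.57. The myelin genes of the central nervous system, *Mog*, *Mobp*, *Opalin* and *Myrf*, had 15 to 19 UMIs in the *S1pr2fl/fl* section and 17 to 32 in the *S1pr2fl/fl K14-Cre* section, near the receptor background.

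The members were next placed in the tissue. Spots were clustered without the members and the other nerve genes. In the *S1pr2fl/fl* section an epidermal region led by *Lce3a* and *Sprr2i* had 169 spots, a collagen-rich region led by *Mup17* and *Rasgrp2* had 209, and muscle regions led by *Tnnt1*, *Myh2* and *Trim63* had 367. The *S1pr2fl/fl K14-Cre* section had epidermal regions led by *Sprr2i*, *Lce3c* and *Alox8* with 205 spots, muscle regions led by *Myh2* and *Myoz2* with 334, and a region led by the developmental muscle genes *Tnnc1*, *Myh8* and *Tnni1* with 181. In this last region 7 of 7 developmental muscle, 6 of 7 fat, 5 of 9 dermal and 0 of 7 adult muscle markers were enriched, so it was given no tissue name and is called the *Tnnc1* region. The remaining spots were not assigned.

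In the *S1pr2fl/fl* section *Pmp22* was at 9.25 CPM (3.72 to 19.1) in the epidermal region, 261 CPM (234 to 290) in the muscle regions and 379 CPM (343 to 418) in the collagen-rich region. *Cnp* was at 3.96, 62.7 and 111 CPM in the same order, and *Prx* at 3.96, 21.1 and 18.1 CPM. *Mbp* differed, with 56.8 CPM (41.1 to 76.5) in the epidermal region, 64.9 CPM (51.9 to 80.2) in the muscle regions and 135 CPM (113 to 159) in the collagen-rich region. Thus *Mbp* in the epidermal region was within the interval of the muscle regions, and without its single Schwann-marker spot it was at 56.7 CPM. The receptor genes were at 0.796 CPM per gene in the epidermal region, 1.93 in the muscle regions and 3.11 in the collagen-rich region. This is the same order as for *Pmp22* and *Cnp*.

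In the *S1pr2fl/fl K14-Cre* section *Mbp* was at 112 CPM (86.0 to 143) in the epidermal regions, 169 CPM (143 to 199) in the muscle regions and 191 CPM (162 to 224) in the *Tnnc1* region. *Pmp22* was at 62.1, 240.0 and 374 CPM, and *Cnp* at 17.8, 85.9 and 136 CPM. *Prx* was at 75.1 CPM (57.2 to 96.9) in the *Tnnc1* region, against 15.3 CPM (8.14 to 26.2) in the muscle regions and 19.5 CPM (9.75 to 34.9) in the epidermal regions, and was at 83.9 CPM (51.3 to 130) and 83.2 CPM (57.6 to 116) in 2 clusters that were not assigned. The *Tnnc1* region also held 37 of the 82 Schwann-marker spots. Receptor genes were at 8.13 CPM per gene in the epidermal regions, 2.08 in the muscle regions and 5.25 in the *Tnnc1* region. In the 2 clusters that were not assigned they were at 10.9 and 9.67 CPM, so *Prx* and this background were both high there. The part of the background in these levels of *Prx* was not tested.

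By distance, *Pmp22* in the *S1pr2fl/fl* section was at 9.25 CPM in epidermal spots, 56.0 CPM at 1 to 2 steps, 238 CPM at 3 to 5 steps and 342 CPM at 6 to 20 steps, and none of these intervals overlapped. *Mbp* was lowest at 1 to 2 steps, 47.2 CPM (37.4 to 58.7), and highest at 6 to 20 steps, 126 CPM (106 to 147). In the *S1pr2fl/fl K14-Cre* section *Pmp22* was at 62.2 CPM in epidermal spots and at 276, 289 and 296 CPM beyond, so that it was as high at 1 to 2 steps as farther away. *Prx* was highest there at 1 to 2 steps, with 82.5 CPM (64.0 to 105), and was at 21.5 CPM (10.3 to 39.5) at 6 to 13 steps. The receptor genes also varied with distance, between 0.796 and 2.72 CPM per gene over the bins of the *S1pr2fl/fl* section and at 8.13, 9.17, 4.07 and 1.92 CPM from the nearest to the farthest bin of the *S1pr2fl/fl K14-Cre* section, where they too were highest at 1 to 2 steps and lowest at 6 to 13 steps.

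**Figure D4:**
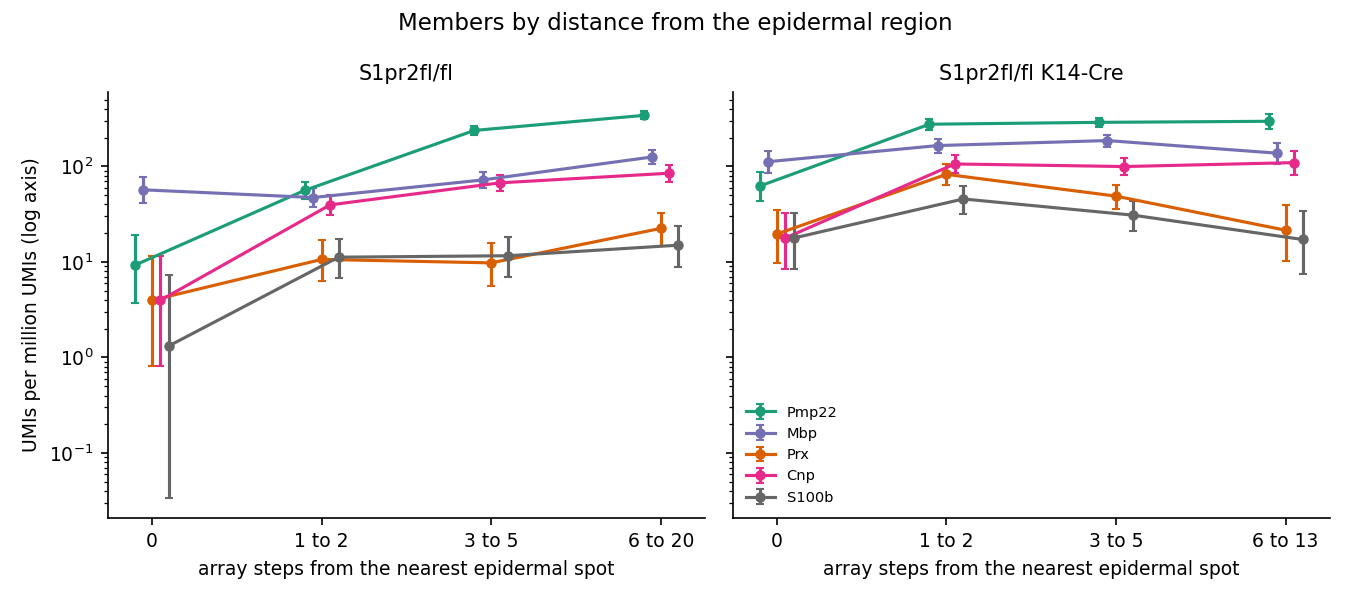
Level of 5 members by distance from the nearest epidermal spot, in steps of the array, as UMIs per 1000000 UMIs on a log axis with 95% Poisson intervals. In the *S1pr2fl/fl* section *Pmp22* goes from 9.25 to 342 CPM with distance while *Mbp* is at 56.8 CPM in epidermal spots, and in the *S1pr2fl/fl K14-Cre* section *Pmp22* is at 276 to 296 CPM beyond the epidermal spots while *Prx* goes from 82.5 CPM at 1 to 2 steps to 21.5 CPM at 6 to 13 steps.

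Between the sections, all 5 members above background were higher per UMI in the *S1pr2fl/fl K14-Cre* section. *Prx* was at 13.4 CPM (10.4 to 16.8) and 48.1 CPM (40.4 to 56.9), a log2 ratio of 1.85 (1.43 to 2.28). *S100b* was at 11.1 CPM (8.45 to 14.3) and 30.2 CPM (24.2 to 37.3), a log2 ratio of 1.44 (0.95 to 1.95). *Mbp* was at 75.4 CPM (68.2 to 83.2) and 157 CPM (143 to 173), a log2 ratio of 1.06 (0.86 to 1.26).

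*Cnp*, at 54.4 and 86.8 CPM, had a log2 ratio of 0.67 (0.42 to 0.92) and *Pmp22*, at 173 and 242 CPM, one of 0.49 (0.34 to 0.63), both below 2-fold. *Sox10*, at 3.01 and 5.97 CPM, had a log2 ratio of 0.99 with an interval that included 0 (-0.08 to 2.07). Of the 5 members with at least 50 UMIs over both sections, 3 were thus at least 2-fold higher and none was 2-fold lower. Over all 13626 such genes 17.3% were 2-fold higher and 5.58% 2-fold lower, with a median log2 ratio of 0.17.

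The size of these differences depended on the scale. Scaling by the TMM factor of edgeR shifted every log2 ratio by -0.37 and the median of all genes to -0.20. *Mbp* then stood at 0.69, below 2-fold, *Cnp* at 0.30 and *Pmp22* at 0.11, whereas *Prx* at 1.48 and *S100b* at 1.07 stayed above 2-fold. Beside the receptor background, whose log2 ratio was 1.43, *Mbp*, *Cnp* and *Pmp22* had smaller ratios, and the intervals of *S100b* and *Prx* included that value. With the mean receptor count of each section taken off, the log2 ratios were 1.05 for *Mbp*, 1.92 for *Prx*, 1.45 for *S100b*, 0.63 for *Cnp* and 0.47 for *Pmp22*. The background of each member's own probes was not measured.

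The tissue in the sections differed as well. All 7 adult muscle genes and all 7 developmental muscle genes were at least 2-fold higher in the *S1pr2fl/fl K14-Cre* section, where their summed level was 59676 against 18592 CPM and 623 against 34.6 CPM. Of 15 epidermal genes 11 were 2-fold lower, with a summed level of 13888 against 47907 CPM. The part of this makeup in the members' differences was not tested, but they could be taken within regions. The muscle regions themselves were not alike. In the *S1pr2fl/fl* section a muscle cluster of 202 spots had 5 of 7 fat and 5 of 7 developmental muscle markers enriched, and that of 165 spots had 2 and 1. The *S1pr2fl/fl K14-Cre* muscle clusters, of 152 and 182 spots, had 3 and 0 of 7 fat markers and 0 of 7 developmental muscle markers enriched. In the muscle regions the log2 ratio was 1.38 for *Mbp*, 1.05 for *S100b* and 0.45 for *Cnp*, but -0.12 for *Pmp22* and -0.47 for *Prx*, which had 28 and 13 UMIs there. In the epidermal regions it was 0.98 for *Mbp*, 2.75 for *Pmp22* and 2.16 for *Cnp*, the last from 3 and 10 UMIs. *Prx* had 2.30 there, from 3 and 11 UMIs, and *S100b* 3.75, from 1 and 10 UMIs. The summed receptor genes had a log2 ratio of 3.35 (3.24 to 3.47) in the epidermal regions. As point values, the ratios of *Mbp*, *Pmp22*, *Prx* and *Cnp* there were below this and that of *S100b* was above it. The UMIs of *S100b* were too few to set it apart from the background, and *Pmp22* had 7 and 35 UMIs. In the muscle regions the receptor genes had 0.11 (0.03 to 0.19).

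Within Schwann-marker spots the point log2 ratios between the sections were nearer to 0 than in the other spots. *Pmp22* was at 644 and 595 CPM there, a log2 ratio of -0.11 (-0.41 to 0.18), and *Cnp* at 161 and 181 CPM, a ratio of 0.17 (-0.40 to 0.75). *S100b* had a log2 ratio of 0.45 (-0.65 to 1.62), from 12 and 20 UMIs. *Mbp* had 0.52 (0.14 to 0.90) and *Prx* 0.97 (0.21 to 1.78), with intervals above 0. The summed receptor genes had 1.24 (1.13 to 1.35) in the same spots, above the ratio of each of these members. The intervals of *Prx* and *S100b* included 1.24. In the other spots *Pmp22* had 0.40 (0.23 to 0.57), *Mbp* 0.90 (0.67 to 1.14), *Prx* 1.81 (1.29 to 2.34), *S100b* 1.50 (0.94 to 2.07) and *Cnp* 0.61 (0.32 to 0.89). The receptor genes had 1.44 (1.41 to 1.47) there. Between Schwann-marker spots and other spots the intervals overlapped for *Mbp*, *Prx*, *S100b* and *Cnp*, and did not for *Pmp22*. The Schwann-marker spots were also not equally rich in the 8 genes. They held 281 UMIs of these among 285745 in the *S1pr2fl/fl* section and 585 among 347712 in the *S1pr2fl/fl K14-Cre* section. The share of Schwann-marker spots, in contrast, was 8.36% against 3.74%. After thinning to 1000 UMIs, with at least 2 UMIs of the 8 genes, it was 5.75% (50 spots, 4.30 to 7.51) against 1.02% (10 spots, 0.491 to 1.87). Some of these genes were near the receptor mean of 17.0 UMIs in the *S1pr2fl/fl K14-Cre* section. *Cdh19* had 15 UMIs and *Mag* 25 there, while *Drp2*, *Gldn*, *Cldn19* and *Dhh* had 42 to 65. The part of the higher background of that section in these shares was not tested.

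**Figure D5:**
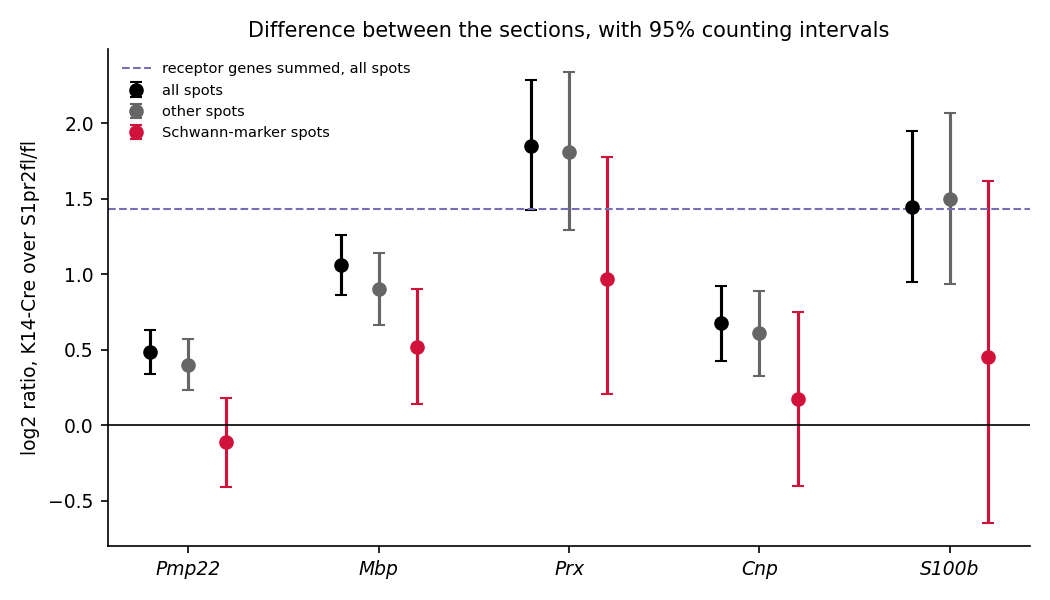
Log2 ratio of the *S1pr2fl/fl K14-Cre* over the *S1pr2fl/fl* section for 5 members in all spots, in Schwann-marker spots and in the other spots, with 95% counting intervals. The dashed line is the ratio of the summed receptor genes over all spots (1.43), and in Schwann-marker spots these genes had 1.24. In Schwann-marker spots the ratios are nearer to 0, from -0.11 for *Pmp22* to 0.97 for *Prx*. Their intervals overlap those of the other spots except for *Pmp22*.

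Other genes of the pathway did not move as one. Of 15 further myelin genes, 13 had at least 50 UMIs, 7 of these were 2-fold higher in the *S1pr2fl/fl K14-Cre* section and 1 was 2-fold lower, with a median log2 ratio of 1.03. Over all genes with as many UMIs 17.3% were 2-fold higher and 5.58% 2-fold lower. The receptor background had a log2 ratio of 1.43, and the central myelin genes, summed, 1.44 (0.97 to 1.92). *Dhh*, the hedgehog ligand of Schwann cells, had 32 and 65 UMIs (log2 ratio 1.92, 1.29 to 2.58, an interval that included the receptor value). *Egr2*, the transcription factor of myelination, had 209 and 81 UMIs and a log2 ratio of -0.47 (-0.85 to -0.09). *Fa2h*, which hydroxylates the fatty acids of myelin lipids and is also active in sebaceous glands, had a log2 ratio of -1.70 (-1.85 to -1.55), beside a sebaceous gene list of which 3 of 5 tested genes were 2-fold lower. Of 6 tested genes of non-myelinating or immature Schwann cells, 3 were 2-fold higher and 2 were 2-fold lower. *Ncam1*, which muscle also makes, had 48 and 132 UMIs. The lower genes were *Erbb3*, with 447 and 93 UMIs, and *L1cam*, with 96 and 19. Summed over the whole list the log2 ratio was -0.05 (-0.22 to 0.12). *Erbb3* alone gave 447 of the 843 UMIs of this sum in the *S1pr2fl/fl* section and 93 of the 436 in the *S1pr2fl/fl K14-Cre* section. The sum therefore rests largely on this gene and does not describe the list as a whole.

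As *Sox10* and *S100b* are also made by melanocytes, the melanocyte genes were set beside them. Their summed level was 79.6 CPM in the *S1pr2fl/fl* section and 81.9 CPM in the *S1pr2fl/fl K14-Cre* section, a log2 ratio of 0.04 (-0.20 to 0.28), and *Oca2* had 3 and 0 UMIs. *Dct* alone gave 246 and 90 of these UMIs, and without it the log2 ratio of the sum was 0.59 (0.27 to 0.92). This was below the 1.43 of the receptor background. In the *S1pr2fl/fl K14-Cre* section *Tyrp1*, *Slc45a2* and *Mlana* had 22, 23 and 24 UMIs, near the receptor mean of 17.0, and *Pmel* and *Tyr* had 36 and 38. The part of the background in the sum without *Dct* was not tested. Of the 5 melanocyte genes tested, 1 was 2-fold higher in the *S1pr2fl/fl K14-Cre* section.

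Likeness across spots was measured as the lower of the sections' Pearson correlations, over 1096 and 947 spots with at least 500 UMIs, among 9128 genes. These values share library and depth and are a description. Among the 5 genes most like *Mbp* were *Mal*, a proteolipid of myelin (r = 0.21 in both sections), and *Gatm*, an enzyme of creatine synthesis (0.18 in the *S1pr2fl/fl* section and 0.26 in the *S1pr2fl/fl K14-Cre* section). *Gatm* was also among those of *Prx* (0.15 and 0.22). *Pmp22* was most like *Apod* (0.39 and 0.26), followed by *Clec3b* (0.32 and 0.26). Among the 5 genes most like *Cnp* were *Apod* (0.19 and 0.23), *C3* (0.19 and 0.19), *C1qa* (0.17 and 0.16) and *Col1a2* (0.19 and 0.16). For *Sox10* and *S100b* every correlation listed was weak, at most 0.14 and 0.12, and gives no finding.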

How the data were processed

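Spatial gene expression was measured in 2 skin sections, 1 per genotype. The deposited values are whole-number counts of UMIs, which the authors had not normalized, for each spot over tissue, with the array positions. The file header names Space Ranger 3.0.0, the submitters' processing notes name build mm10, and the paper states that Partek Flow was used. The probe set is not given in the sources used here.

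Members were summed over spots and divided by all UMIs of the same spots. Intervals at 95% are exact Poisson (levels), Clopper-Pearson (shares) and conditional binomial (ratios), and cover counting error only. A count of 0 allows up to 3 counts. Members and gene lists were chosen with earlier results of these data known. Named genes are the members, the listed genes where a result turns on them, and the 5 genes most like each member, and some of these genes and the results that need them are not reported here.

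Spots with at least 50 UMIs were clustered per section in Python 3.11.15, using scanpy 1.11.5 together with igraph 0.11.9 (2000 variable genes, 20 components, 15 neighbours, Leiden resolution 1), with the members and nerve genes kept out. A cluster took a region's name where at least 50% of that region's marker genes exceeded their level in the remaining spots at least 2-fold. Clusters led by at least 3 developmental muscle genes, and shallow clusters without a marker among 10 leading genes, were left unassigned, rules set after seeing the clusters. No doublet caller was run, since spots are areas of tissue. The intervals were tested on simulated data. The alternatives were spots with at least 500 UMIs, connected groups of at least 20 spots, scaling by TMM (edgeR 4.0.16, R 4.3.3), removal of the mean receptor count, means of spot CPM, single regions, thinning to 1000 UMIs, other minimums for Schwann-marker spots, at least 2 UMIs of a gene, and resolution 0.5.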

Additional observations from a re-analysis of the deposited data

How the results depend on the processing

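Of the 46 recomputed log2 ratios of members between the sections, 33 stayed within the 95% interval of the reported value, and of the 40 for *Pmp22*, *Mbp*, *Prx*, *Cnp* and *S100b*, 38 stayed above 0. The exceptions below 0 were *Prx* at -0.47 and *Pmp22* at -0.12 in the muscle regions. There *Mbp* moved to 1.38 and *Sox10* to -1.68, the last from 5 and 1 UMIs. In the epidermal regions the ratio was 2.75 for *Pmp22*, 2.30 for *Prx*, 3.75 for *S100b* and 2.16 for *Cnp*. These rested on few UMIs, 3 and 11 for *Prx*, 1 and 10 for *S100b* and 3 and 10 for *Cnp*. Without the muscle regions the ratio was 0.76 for *Pmp22* and 2.53 for *Prx*. The TMM factor gave 0.69 for *Mbp*, 0.11 for *Pmp22* and 0.30 for *Cnp*. Thinning to 1000 UMIs moved the log2 ratio of the share of spots to 0.82 for *Mbp*, 0.23 for *Pmp22*, 2.04 for *S100b* and 0.49 for *Cnp*. The cause of these moves was not tested.

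For Schwann-marker spots over other spots, in the *S1pr2fl/fl* section a minimum of 2 UMIs gave log2 ratios of 1.78 for *Mbp*, 1.49 for *Pmp22* and 1.14 for *Cnp*, and a minimum of 5 gave 3.19, 2.82 and 2.42 for these and 4.19 for *Prx*. After thinning *Mbp* was at 2.87, *Pmp22* at 3.31 and *S100b* at 4.28. In the *S1pr2fl/fl K14-Cre* section a minimum of 2 gave 1.43 for *Mbp*, 1.20 for *Pmp22*, 1.43 for *Prx* and 0.80 for *S100b*, the last below 2-fold, and a minimum of 5 gave 2.32 for *Mbp* and 2.00 for *Pmp22*. After thinning *Pmp22* was at 2.24, *Prx* at 2.98 and *Cnp* at 1.88.

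At least 2 members were found in 3.17% and 6.90% of spots after thinning, and in 4.76% and 6.73% with at least 2 UMIs of each gene. The log2 ratio of *Pmp22* in spots with over spots without *Mbp* was 1.14 and 1.79 after thinning, and 0.99 and 1.28 with at least 2 UMIs of *Mbp*. With clustering at resolution 0.5, the *S1pr2fl/fl K14-Cre* muscle regions over the epidermal regions gave 1.01 for *Pmp22*, -1.74 for *Prx* and 0.96 for *Cnp*. Values of *Sox10* with 0 UMIs on either side, or below the receptor mean, could not be computed, and the alternatives that changed which marker genes chose the spots are not reported here. No paired analysis was possible because each genotype had 1 section.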
